A study of Mus musculus with 4 samples.

Results

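The 3 fibroblast growth factor (FGF) receptors Fgfr1, Fgfr2 and Fgfr3 and 6 genes that FGF signaling induces in many tissues (Spry1, Spry2, Spry4, Dusp6, Etv4 and Etv5) were followed across the cells of the developing mouse molar. These 9 genes were taken by symbol from the 32285 genes of the deposited matrices. The rule uses no measured value, but the genes were chosen with earlier results of these data known. The study profiled wild-type molars by single-cell RNA sequencing (genotype label WTB6, C57BL/6J according to the methods), with 1 library for each of 4 groups: maxillary and mandibular molars at the embryonic stage E15.5 (the age label reads E15) and at postnatal day 1 (P1; the protocol text also covers pups on the day of birth). The methods state that 6 tooth organs were pooled into each sample (the labels give the 6 as a number of embryos or pups), so no group has a replicate, and no agent, allele or transgene separates the groups. Of 56940 deposited barcodes, 44144 carried at least 1000 unique molecular identifiers (UMIs, counts of captured mRNA molecules) and were not repeats of the other P1 library, and 35450 remained after removal of cells with a high mitochondrial percentage and of predicted doublets. The kept cells numbered 8338 and 6010 in the E15.5 maxillary and mandibular libraries and 13555 and 7547 in the P1 maxillary and mandibular libraries, with median depths of 9887, 11569, 3946 and 10865 UMIs per cell.

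FGF ligands bind receptor tyrosine kinases on neighbouring cells and act in large part through Ras and the MAP kinases ERK1 and ERK2. The receptor genes are spliced into IIIb forms, typical of epithelium, and IIIc forms, typical of mesenchyme, and in teeth ligands pass both ways: the enamel knot and the ameloblast side of the epithelium release FGF4 and FGF9 to the mesenchyme, which in turn releases FGF3 and FGF10 to the epithelium. Sprouty proteins (Spry1, Spry2, Spry4) restrain signaling from receptor tyrosine kinases and Dusp6 removes phosphate from ERK, so they are feedback inhibitors, whereas Etv4 and Etv5 are ETS transcription factors that carry the response into the nucleus. The libraries read the 3′ ends of transcripts, so IIIb and IIIc forms could not be told apart and levels were compared between cells but not between genes.

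The genes lie apart in the genome (build GRCm38.p6, RefSeq annotation): Fgfr1 at chr8:25518759-25575718, Fgfr2 at chr7:130162451-130266808, Fgfr3 at chr5:33721724-33737068, Spry1 at chr3:37639947-37644599, Spry2 at chr14:105891947-105896819, Dusp6 at chr10:99263231-99267489, Etv4 at chr11:101769747-101785310 and Etv5 at chr16:22381313-22439570. The GENCODE model of Fgfr2 spans 2961 kb against 104 kb in RefSeq, and its part in the Fgfr2 counts was not tested. Fgfr1, Fgfr3, Spry1 and Dusp6 are on the plus strand and Fgfr2, Spry2, Etv4 and Etv5 on the minus strand. RefSeq promoter entries were used for 6 of the 9 genes, and those of 3 feedback genes are shown here because they are the stretches before genes read as targets of the pathway. Each is the 250 bases before the annotated start, 5′ to 3′ on the strand of the gene, outside any exon, with matches to the searched letters in capitals. Dusp6 is from chr10:99262981-99263230, Spry1 from chr3:37639697-37639946 and Spry2 from chr14:105896820-105897069.
Dusp6: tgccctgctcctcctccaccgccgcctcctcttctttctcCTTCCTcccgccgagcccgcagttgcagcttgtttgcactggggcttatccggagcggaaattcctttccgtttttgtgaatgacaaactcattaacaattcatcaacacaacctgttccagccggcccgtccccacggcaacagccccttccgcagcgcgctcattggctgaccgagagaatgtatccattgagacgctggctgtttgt
Spry1: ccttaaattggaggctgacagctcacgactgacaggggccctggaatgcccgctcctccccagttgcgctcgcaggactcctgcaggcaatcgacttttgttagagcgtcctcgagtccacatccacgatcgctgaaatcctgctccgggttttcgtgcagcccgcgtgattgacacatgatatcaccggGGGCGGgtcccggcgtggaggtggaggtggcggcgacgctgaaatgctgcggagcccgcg
Spry2: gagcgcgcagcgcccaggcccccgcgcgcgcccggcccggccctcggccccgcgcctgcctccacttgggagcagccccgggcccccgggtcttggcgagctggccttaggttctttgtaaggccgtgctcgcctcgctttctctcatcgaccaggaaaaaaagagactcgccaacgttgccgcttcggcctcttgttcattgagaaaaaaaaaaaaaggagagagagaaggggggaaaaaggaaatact
The letters searched on both strands were CCGGAA and AGGAAG, both of the kind ETS factors bind, and GGGCGG, the GC box. The Dusp6 stretch held 1 AGGAAG match, read as CTTCCT on this strand, the Spry1 stretch held 1 GGGCGG match, and the Spry2 stretch held none of the 3. Of 32851 mouse promoters of the same length, 12% held CCGGAA, 29.5% AGGAAG and 32.7% GGGCGG, so each match is a common one, and the absence of a match says only that these letters are not in this window. Fgfr1, Etv4 and Spry4 are named without a sequence, and the position of Spry4 is not reported here.

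Before any result, a property of the P1 libraries has to be given. The P1 maxillary and P1 mandibular libraries shared 7131 barcodes, against 28 to 70 for the other pairs of libraries, and a shared barcode carried more UMIs in the maxillary library (median log2 ratio 2.07, 5th to 95th percentile 2.0 to 2.18). These barcodes were kept in the maxillary library and dropped from the mandibular one. In the P1 maxillary library they made up 98.1% of the dental papilla, 97.3% of the odontoblasts and 99.4% of the ameloblasts, but 23.7% of the remaining mesenchyme and 2.47% of the chondrocytes. Of all P1 maxillary barcodes with 10000 UMIs or more 95.9% were shared, against 0.577% of those with 1000 to 2000, so every value without them also rests on shallower cells. From which jaw the shared cells came cannot be told apart here. Without them 47 papilla cells, 4 odontoblasts and 1 ameloblast were left there, and the highest class of the P1 maxillary library became another for 5 of the 9 genes: the remaining mesenchyme for Fgfr1, suprabasal oral epithelium for Fgfr2, chondrocytes for Fgfr3, the remaining epithelium for Etv4 and gland epithelium for Etv5. The P1 maxillary levels by class that follow include them, and tissue ratios that lost a 2-fold difference or changed sign are given both ways.

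Cells were clustered without any of the 128 FGF pathway genes considered here, and every class name stands for a cluster that resembles that cell type by its markers, not for an identified cell. Krt14, Krt5 and Epcam marked the epithelium, Col1a1, Pdgfra and Barx1 the mesenchyme, and Amelx, the main enamel matrix gene, stood at 35077 and 63057 CPM (UMIs per 1000000 UMIs of the class) in the P1 maxillary and mandibular ameloblasts. The labelled molar tissue was thus present in all libraries, together with surrounding jaw tissue such as bone, muscle, glia and oral mucosa. The odontoblast class held Dspp, the dentin sialophosphoprotein gene, at 520 and 1775 CPM, which was below the 2344 and 2466 CPM of the ameloblasts, and Dmp1, a gene of mineralized matrix, at 682 and 909 CPM against 2.35 and 5.05. Its 2 clusters were led by Bglap, Dmp1 and Phex, which osteoblasts or osteocytes also express. The name odontoblasts below stands for the cells led by these genes. In the E15.5 mandibular library all 91 epithelial cells fell into a single cluster led by Krt13, Krt5 and Krt14, which mixed oral and dental cells. A P1 mandibular cluster of 78 cells matched dental follicle markers but was led by Ibsp and Bmp3, and is called the Ibsp-led cells. The P1 maxillary osteoblast class also held follicle markers, with Foxf1 at 283 and Epha3 at 1118 CPM beside Runx2 at 2529 and Ibsp at 1072. In the E15.5 maxillary osteoblast class Foxf1 stood at 135 and Epha3 at 643 CPM, against 172 and 877 in the dental follicle class. The name osteoblasts below stands for cells rich in Runx2 with Ibsp, not for bone cells alone.

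Fgfr1, the receptor that binds the widest range of ligands in its mesenchymal form, was at its highest in follicle cells at E15.5 and in dental epithelium at P1. At E15.5 it stood at 230 CPM (95% counting interval 221 to 239) in the maxillary dental follicle and 232 (213 to 252) in the mandibular one, above every other named class of those libraries. Osteoblasts followed at 191 and 185 CPM, and the E15.5 maxillary dental papilla stood at 153. In the mandibular library osteoblasts came first when every cell was thinned to 1000 UMIs. They also did so when doublets and cells with a high mitochondrial percentage were kept. The mandibular follicle class held Runx2 at 1235 and Ibsp at 166 CPM, so its line to osteoblasts is not sharp. The intervals given here, and all others below, cover counting error only and say nothing of the spread between animals. At P1 the order was different: ameloblasts stood at 516 CPM (489 to 545) in the maxillary library, with an interval that overlapped the remaining epithelium, which is mostly dental, at 478 (466 to 490), and odontoblasts followed at 365. In the P1 mandibular library, where 212 cells that resembled stellate reticulum and stratum intermedium (SR/SI) formed a class of their own at 278 CPM (262 to 295), the remaining epithelium was highest at 544 (530 to 559), and ameloblasts at 472 and odontoblasts at 463 overlapped. All epithelium other than ameloblasts held 447 CPM in that library, so the first place depends on this division. The dental papilla followed at 279 and 358 CPM, so that the first 4 places in both P1 libraries, among classes divided in this way, went to classes of the tooth germ, with osteoblasts at 216 and 205. The maxillary order rests on the shared barcodes, without which the epithelium as a whole held 106 CPM and the mesenchyme 224. The lowest classes were immune cells, at 3.91 to 13.6 CPM, and red blood cells, at 1.25 to 7.39 CPM, which should lack the receptor and give the level of free RNA.

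Within the P1 epithelium the Fgfr1 level was uneven. The highest cluster in each P1 library was one that expressed Shh, the signal of the inner dental epithelium: cluster 1 of the maxillary library (381 cells, led by Vwde) at 745 CPM (722 to 768) and cluster 2 of the mandibular library (292 cells, led by Stmn2 and Frem2) at 960 (929 to 992). The Odam-led clusters of the same libraries stood at 295 and 150 CPM, and the Krt13-led suprabasal oral cells at 38.8 and 20.4. Inside a single tissue the receptor was therefore anywhere from far below to far above its mesenchymal level of 267 and 273 CPM. In the E15.5 maxillary epithelium the Shh-led cluster (225 cells) held 138 CPM (125 to 152), the remaining oral and dental epithelium as a whole 70.1 and the suprabasal cells 16.3. After thinning every cell to 1000 UMIs, 25.2% of P1 maxillary and 33.9% of P1 mandibular epithelial cells held an Fgfr1 UMI, against 5.50% and 15.4% at E15.5 (without thinning 66.6%, 90.4%, 42.1% and 68.1%). In red blood cells the thinned share was 0.623% or less and the unthinned share 3.86% or less, at median depths of 1940.5 to 7479 UMIs.

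Fgfr2, the receptor for FGF3, FGF7 and FGF10 in its epithelial form, was highest in the osteoblast class in 3 of the 4 libraries. In both maxillary libraries that class also held follicle markers. Osteoblasts held 538, 590, 701 and 698 CPM in the E15.5 maxillary, E15.5 mandibular, P1 maxillary and P1 mandibular libraries, exceeded only by the Ibsp-led cells of the P1 mandibular library at 958. The chondrocyte class of the E15.5 mandibular library, which mixed markers of cartilage and bone (Col2a1 597 and Ibsp 3154 CPM), followed at 507 CPM. The remaining oral and dental epithelium held 495 CPM in the E15.5 maxillary library and 356 and 419 in the P1 maxillary and mandibular libraries, and the SR/SI cells of the P1 mandibular library 328. Suprabasal oral cells held 295, 476 and 310 CPM in the E15.5 maxillary, P1 maxillary and P1 mandibular libraries (62, 205 and 44 cells). Along both tooth lineages the receptor was lower in the mineralizing cells: ameloblasts held 206 and 183 CPM, and odontoblasts 46.4 and 39.8 against 146 and 109 in the P1 dental papilla. In 36.1% to 44.4% of thinned osteoblasts there was an Fgfr2 UMI, against 5.37% and 2.27% of odontoblasts and at most 0.727% of red blood cells. Unthinned, 74.8% to 96.0% of osteoblasts and 56.4% and 51.7% of odontoblasts held one.

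**Figure D1:**
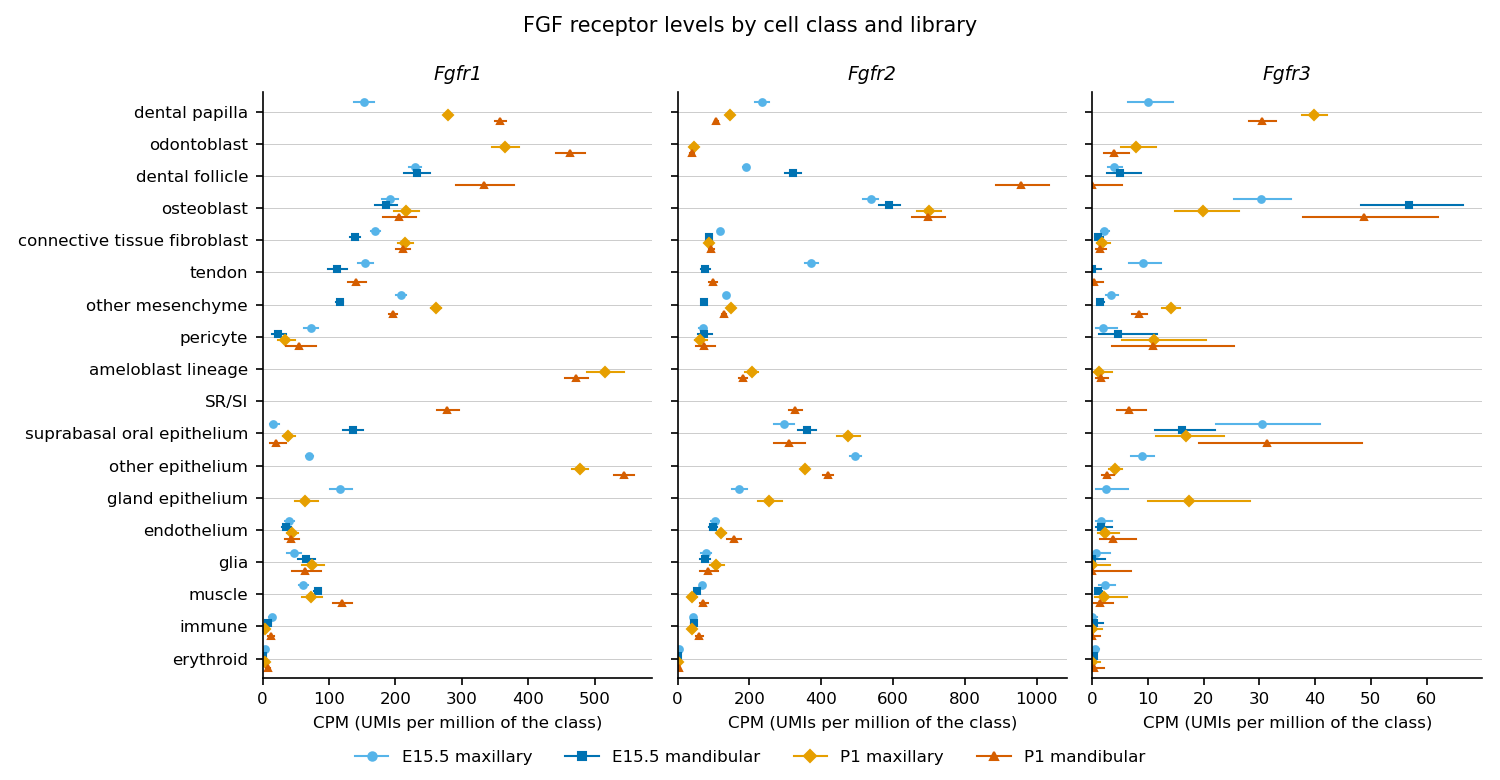
Level of Fgfr1, Fgfr2 and Fgfr3 in each cell class (rows) of the 4 libraries (colours and markers), in CPM, with 95% counting intervals. Fgfr1 is highest in P1 epithelium (472 to 544 CPM for ameloblasts and the remaining epithelium, but 278 CPM for SR/SI cells), Fgfr2 is highest in osteoblasts in 3 libraries (538 to 701 CPM) and in the Ibsp-led cells of the P1 mandibular one (958 CPM), and the axis of Fgfr3 covers a lower range; the E15.5 mandibular suprabasal point is that library's whole mixed epithelium.

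Fgfr3, known for restraining the growth of cartilage, had a pattern of its own. At E15.5 it was a gene of skeletal and suprabasal cells, with 30.5 CPM (22.2 to 40.8) in maxillary suprabasal cells and 30.2 (25.5 to 35.6) in maxillary osteoblasts, which overlapped, and 59.6 (52.4 to 67.4) in mandibular chondrocytes and 56.9 (48.2 to 66.6) in mandibular osteoblasts, which overlapped as well. The 17 maxillary chondrocytes of that stage, too few to rank, held 217 CPM. The mandibular chondrocyte cluster mixed markers of cartilage and bone (Col2a1 597 and Ibsp 3154 CPM). At P1 the dental papilla was the highest class of the maxillary library at 39.8 CPM (37.6 to 42.0) and second to osteoblasts, at 48.8 (37.7 to 62.1), in the mandibular library with 30.4 (28.0 to 33.0), among classes of at least 50 cells; 44 suprabasal cells there held 31.3 (19.1 to 48.4). The E15.5 maxillary papilla stood at 9.89 CPM (6.46 to 14.5), and its thinned share of cells with an Fgfr3 UMI was 0.380% against 4.29% and 2.88% at P1 (unthinned 8.75%, 35.5% and 34.7%). Odontoblasts stood far below the papilla, at 7.87 and 3.87 CPM. The papilla gave 69.1% of all Fgfr3 UMIs of the P1 maxillary library and 62.3% of those of the P1 mandibular one, with 30.9% and 22.3% of all UMIs. Red blood cells held 0 to 0.431 CPM, so the low epithelial levels of P1, 5.05 and 4.01 CPM, were above free RNA.

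Epithelium and mesenchyme were compared within each library, where both were prepared together. Of the 9 genes, 4 in the E15.5 maxillary, 6 in the E15.5 mandibular, 4 in the P1 maxillary and 5 in the P1 mandibular library differed more than 2-fold with at least 10 CPM on the higher side. Over all genes that met the minimum, 26.0%, 27.4%, 24.9% and 27.3% did so in the same libraries. With 1 library per group there was no test, and these shares are descriptions. The median log2 ratio of the 9 genes was 0.11, 0.52, 0.38 and -0.70, and that of all genes -0.04, 0.04, 0.04 and 0.03, so the members as a group leaned to neither side in common.

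Fgfr2 and Spry4 went the same way in all 4 libraries and past 2-fold each time. Fgfr2 was higher in epithelium, at 467 against 204 CPM in the E15.5 maxillary, 360 against 171 in the E15.5 mandibular, 347 against 160 in the P1 maxillary and 329 against 135 in the P1 mandibular library (log2 ratios 1.19, 1.07, 1.11 and 1.29). Spry4 was higher in mesenchyme, at 14.2 against 1.07, 23.3 against 1.73, 10.8 against 3.60 and 14.3 against 1.03 CPM (log2 ratios -3.74, -3.75, -1.58 and -3.80), so that the epithelium was nearly without it. Without the shared barcodes neither passed in the P1 maxillary library: Fgfr2 gave 0.63, at 335 against 217 CPM, and Spry4 -1.43 with a mesenchymal level of 7.57 CPM, under the minimum. After thinning every cell to 1000 UMIs, the P1 maxillary ratio of Spry4 was -0.76. Spry1 was also lower in epithelium in each library, with log2 ratios of -0.81, -1.20, -0.36 (-1.04 without shared barcodes) and -1.95. Spry2 had no common direction, with 0.11, -0.33, 0.38 (-0.09 without shared barcodes) and -0.69.

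The tissue ratios of Fgfr1 and Fgfr3 differed between the stages. For Fgfr1 the E15.5 maxillary epithelium held 62.4 CPM and the mesenchyme 191 (log2 ratio -1.61, interval -1.73 to -1.50), the E15.5 mandibular tissues 136 and 131 (0.05, -0.12 to 0.21), the P1 maxillary ones 435 and 267 (0.71, 0.67 to 0.74), and the P1 mandibular ones 454 and 273 (0.74, 0.70 to 0.77). The epithelium was thus lower in the E15.5 maxillary library, equal within counting error in the E15.5 mandibular one and higher in both P1 libraries. For Fgfr3 the epithelium was slightly higher at E15.5, with log2 ratios of 0.54 (0.23 to 0.83) and 0.52 (an interval that just reached 0), and lower at P1, with -2.31 (-2.64 to -2.0) and -1.96 (-2.30 to -1.63). The E15.5 maxillary excess was not in the Shh-led cluster, at 1.61 CPM (0.522 to 3.75) against 8.25 in mesenchyme. It was in suprabasal cells, at 30.5, and in the other epithelial cluster, at 12.8. At P1 the maxillary Shh-expressing cluster 1 held 3.30 CPM and suprabasal cells 16.8. The part of this mix of cells in the ratios was not tested. Both P1 maxillary ratios rest on the shared barcodes: without them, 388 epithelial and 4076 mesenchymal cells gave log2 ratios of -1.07 for Fgfr1 and 0.34 for Fgfr3. The P1 mandibular values rest on no shared barcode, and they kept their sign with those barcodes added back.

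Dusp6 and Etv4 were on the epithelial side in both E15.5 libraries and Etv5 in the mandibular one. Dusp6 stood at 25.2 against 15.4 CPM in the maxillary and 38.5 against 13.8 in the mandibular library (log2 ratio 0.71 in the maxillary library), and Etv4 at 13.6 against 6.36 and 21.2 against 7.55 (1.10 and 1.49). The maxillary excess lay mostly in the Shh-led cluster, with Etv4 at 35.7 CPM (111 of 140 UMIs) and Dusp6 at 48.3. The other oral and dental cluster held 4.38 and 17.2 CPM, and suprabasal cells 2.71 and 7.45. Etv5 was level in the maxillary library, at 14.9 against 14.8 CPM (0.01, -0.25 to 0.26), and higher in the mandibular epithelium, at 35.9 against 14.6 (1.30, 0.95 to 1.63). At P1 the 2 libraries went apart: Etv4 was higher in the maxillary epithelium, at 26.2 against 10.5 CPM (1.32), and lower in the mandibular one, at 8.13 against 13.2 (-0.70), and Dusp6 followed the same pattern with 0.45 and -0.68. Etv5 was lower in epithelium in both, with -0.51 and -2.18. Without the shared barcodes the P1 maxillary log2 ratios were 2.64 for Etv4, 0.66 for Dusp6 and 0.56 for Etv5, and with them kept in the P1 mandibular library Etv4 stood at 0.19 and Dusp6 at -0.05, so the mandibular direction of Etv4 depends on that choice and the Dusp6 difference nearly vanished.

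**Figure D2:**
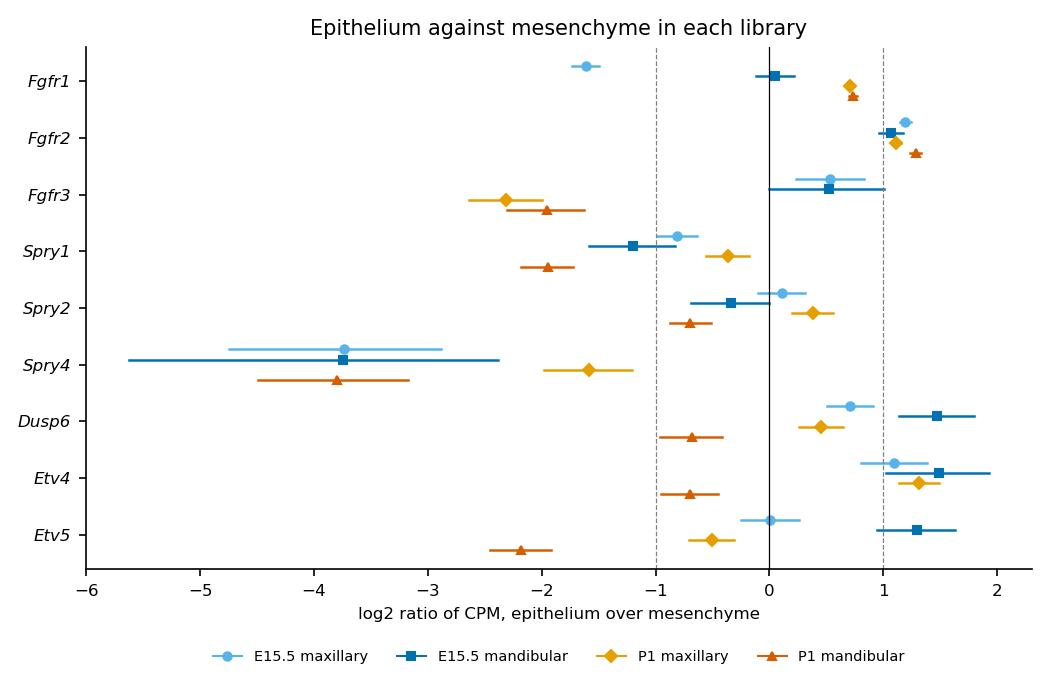
Log2 ratio of the epithelial to the mesenchymal level (horizontal axis) for each of the 9 genes in the 4 libraries, with 95% counting intervals; values above 0 are higher in epithelium. Fgfr2 lies between 1.07 and 1.29 and Spry4 between -3.80 and -1.58 in all libraries, while Fgfr1 lies at -1.61 and 0.05 at E15.5 and 0.71 and 0.74 at P1, and Fgfr3 at 0.54 and 0.52 at E15.5 and -2.31 and -1.96 at P1 (maxillary first); without shared barcodes, not drawn, the P1 maxillary values were -1.07 and 0.34.

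The Sprouty genes were highest outside the tooth germ proper, in fibroblasts, pericytes, glia and glands, except Spry4 in the E15.5 maxillary library, where the dental papilla overlapped pericytes and endothelium. Spry1 led in fibroblasts in both maxillary libraries, at 70.9 CPM (66.7 to 75.2) at E15.5 and 95.8 (88.1 to 104) at P1, where it overlapped pericytes at 75.4. In the mandibular libraries pericytes led with 106 and 65.2 CPM and overlapped other classes. In the tooth, the dental papilla held 30.8 CPM at E15.5 and 7.36 and 12.9 at P1, odontoblasts 21.0 and 35.1, and ameloblasts 6.65 and 4.88. Red blood cells held 1.05 CPM or less, so the ameloblast level, though low, was above theirs. Immune clusters held 2.52 and 6.52 CPM in the P1 maxillary and 1.04 and 3.91 in the P1 mandibular library. Their intervals overlapped those of the ameloblasts.

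Spry2 was highest in the E15.5 maxillary gland epithelium, at 88.2 CPM (74.3 to 104), which is a branching tissue of the kind in which FGF10 acts. In the E15.5 mandibular library glia (75.3 CPM), tendon (68.6) and the remaining mesenchyme (62.7) led with overlapping intervals. At P1 pericytes led at 44.4 and 52.1 CPM and overlapped the next classes, so the order there is not settled. Mesenchymal clusters led by Ebf2 or Grm8 carried Spry1 and Spry2 together: 113 and 70.5 CPM in E15.5 maxillary cluster 20, 111 and 83.5 in E15.5 mandibular cluster 2, and 117 and 72.5 in P1 mandibular cluster 17. These clusters were singled out after their values were seen.

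Spry4, which is known for its role in vessels as well as in tooth number, was highest in pericytes, cells of the vessel wall, in 3 of the 4 libraries. Pericytes held 78.0 CPM (60.7 to 98.7) in the E15.5 mandibular, 87.6 (69.4 to 109) in the P1 maxillary and 117 (88.1 to 153) in the P1 mandibular library, in each case above every other class. In the E15.5 maxillary library the dental papilla at 37.3, pericytes at 32.8 and endothelium at 31.1 overlapped. Endothelial cells held 27.6, 45.3 and 36.2 CPM in the other 3 libraries, second in both P1 libraries but behind tendon (45.9) and the remaining mesenchyme (35.3) in the E15.5 mandibular one. Thinned shares of pericytes with a Spry4 UMI were 4.02%, 5.0%, 7.32% and 15%, and unthinned shares 24.1%, 50%, 30.5% and 51.7%, against at most 0.723% of red blood cells. The pericyte class was small, with 249, 80, 164 and 60 cells.

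Dusp6 was highest in glia, endothelium and immune cells. Glia held 138 CPM (121 to 156), 169 (150 to 190) and 113 (94.3 to 134) in the E15.5 maxillary, E15.5 mandibular and P1 maxillary libraries, and 152 in 48 cells of the P1 mandibular one. Endothelium held 112, 90.6, 125 and 113 CPM and immune cells 53.6, 65.0, 114 and 105. In both P1 libraries these intervals overlapped, whereas in the E15.5 mandibular library glia stood above all others. Endothelium made up 3.03% to 4.88% of the UMIs of the first 3 libraries and gave 18.1% to 21.2% of their Dusp6 UMIs. These ranges leave out the P1 mandibular library, where endothelium was a smaller class of 166 cells, against 246 to 301. Among tooth cells only the E15.5 maxillary papilla, at 65.1 CPM (55.7 to 75.6), came near these classes. At P1 the papilla held 13.7 and 13.8 CPM, odontoblasts 7.29 and 16.0, and ameloblasts 5.87 and 0.505, the last at the level of red blood cells (0.369 to 1.15).

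Among the named classes, Etv4 and Etv5 shared a pair of peaks, the gland epithelium in the E15.5 maxillary library and the odontoblasts at P1. In the E15.5 maxillary gland epithelium (66 cells) Etv4 stood at 58.6 CPM (47.4 to 71.6) and Etv5 at 175 (155 to 197), each above every other class of that library. In the P1 maxillary and mandibular odontoblasts Etv5 stood at 91.3 CPM (81.4 to 102) and 112 (102 to 124), again above every other class, where the next were immune cells at 39.6 and muscle at 30.4. Etv4 in the same cells stood at 34.7 (28.7 to 41.5) and 33.7 CPM (28.0 to 40.3), overlapping the remaining epithelium in the maxillary library (34.6) and pericytes in the mandibular one (19.5). Single clusters stood higher for Etv4, such as cluster 10 of the P1 mandibular library, which took no class name, at 65.4 CPM (52.4 to 80.7). In the E15.5 mandibular library tendon led for Etv4 with 44.6 CPM, and no class stood apart for Etv5. After thinning, 8.72% and 8.52% of odontoblasts held an Etv5 UMI, against 1.07% and 2.18% of P1 papilla cells (unthinned 80.5% and 79.5% against 12.4% and 26.1%), and at most 0.0616% of red blood cells.

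**Figure D3:**
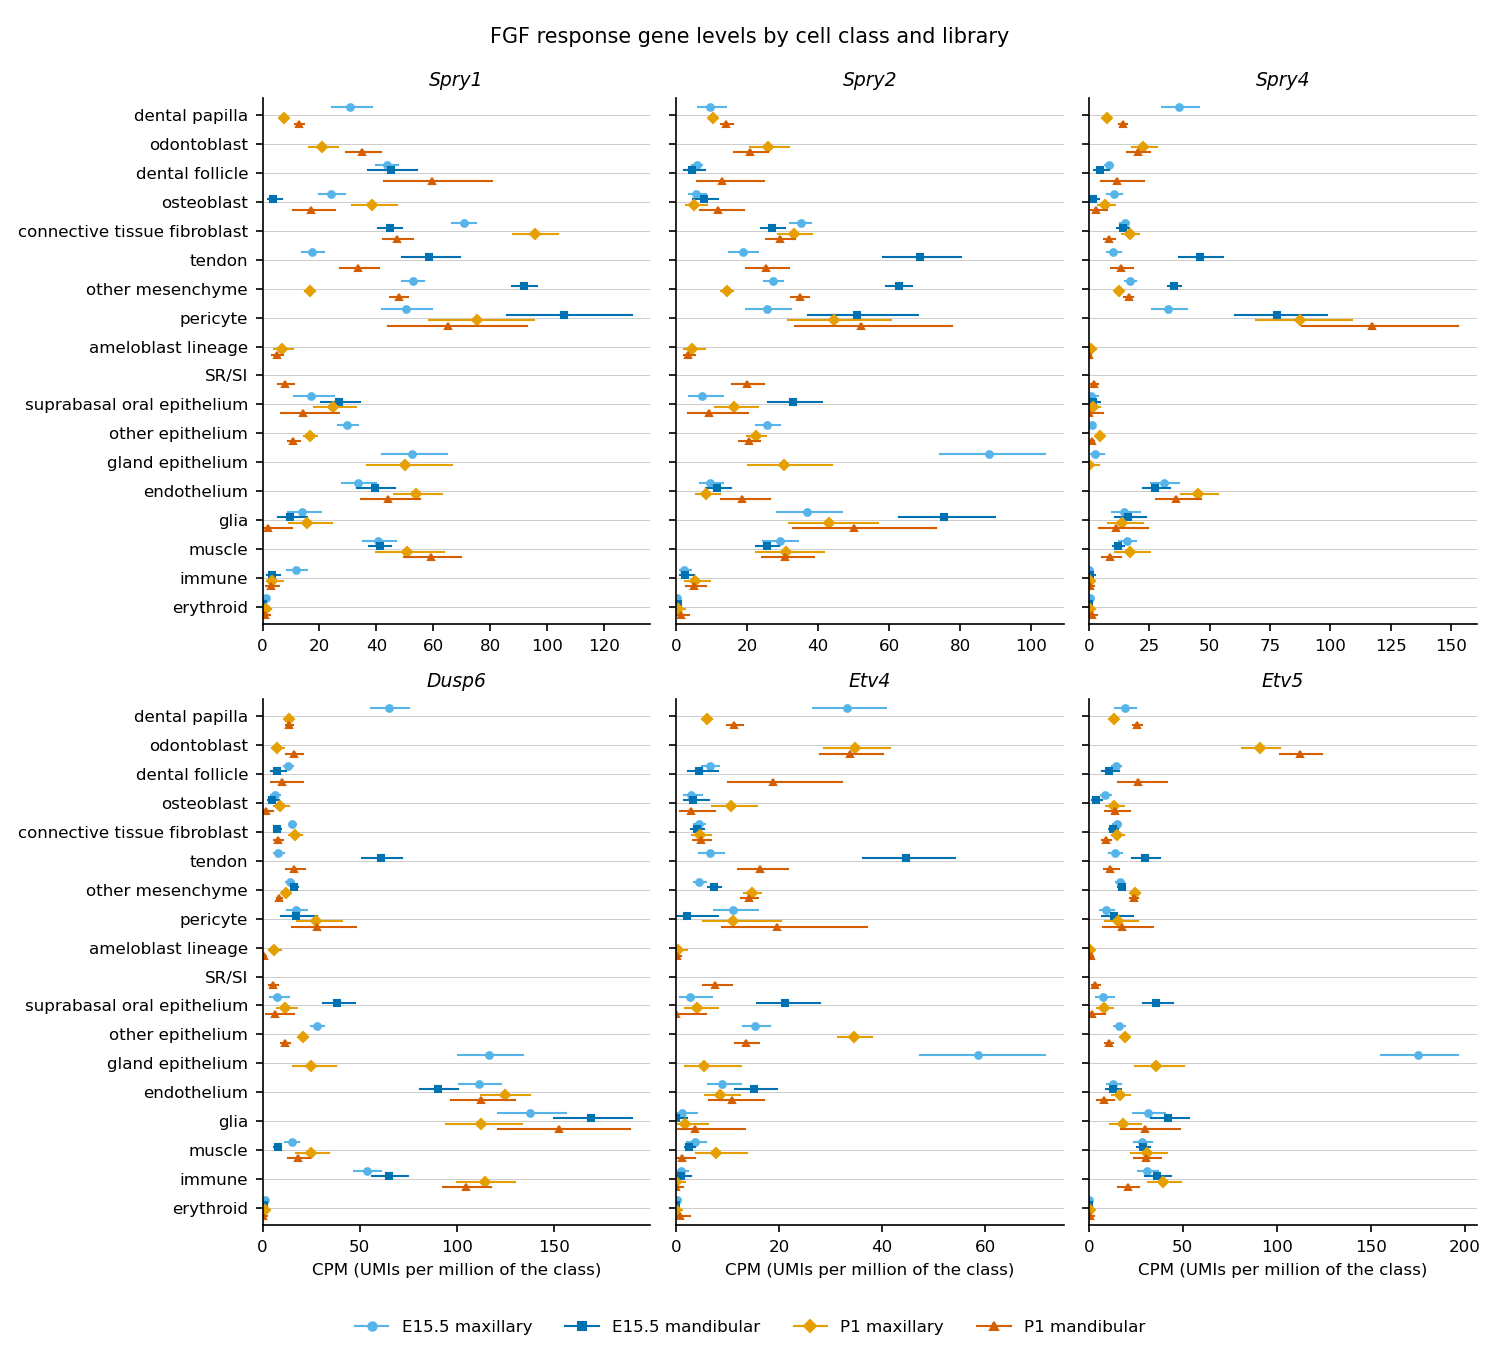
Level of Spry1, Spry2, Spry4, Dusp6, Etv4 and Etv5 in each cell class (rows) of the 4 libraries (colours and markers), in CPM, with 95% counting intervals. Spry4 is highest in pericytes in 3 libraries (78.0 to 117 CPM), Dusp6 in glia, endothelium and immune cells, and Etv5 in E15.5 gland epithelium (175 CPM) and P1 odontoblasts (91.3 and 112 CPM); the E15.5 mandibular suprabasal point is that library's whole mixed epithelium.

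Some dental epithelial clusters of P1 stood well above their class in the response genes, as the E15.5 maxillary Shh-led cluster did for Etv4 and Dusp6. In P1 mandibular cluster 27 (90 cells, led by Dab1, Edar and Vwde), Etv4 was at 91.7 CPM (73.9 to 112), Spry2 at 93.7 (75.7 to 115), Dusp6 at 44.9 and Etv5 at 37.9. The same cluster held Fgf9 at 348 CPM, Shh at 1207 and Wnt10b at 106, ligand genes of signaling centres in the tooth. In the P1 maxillary library the Shh-expressing cluster 1 held Etv4 at 51.8 CPM and Fgf9 at 64.6, and a cycling epithelial cluster held Etv4 at 53.0. The deepest Fgfr1 cluster of the mandibular library, cluster 2, was in contrast low in the response genes, with Etv4 at 3.18 CPM and Etv5 at 2.39 beside Fgfr1 at 960. In cluster 27 Fgfr1 stood at 595 CPM, and in maxillary cluster 1, at 745, so high receptor levels were found with high and with low levels of the ETS genes. On the mesenchymal side, the Smpd3-expressing clusters (744 cells of the maxillary and 467 of the mandibular library) held Etv4 at 25.8 and 31.5 CPM and Etv5 at 36.9 and 39.9, together with Fgf3 at 140 and 121 and Fgf10 at 146 and 165, the ligands that mesenchyme sends to the epithelium. All of these clusters were singled out after their values were seen.

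Odontoblasts, the cells that lay down dentin, were compared with the dental papilla from which they arise. The P1 maxillary cluster 26 (149 cells) and the P1 mandibular cluster 23 (176 cells), both led by Bglap, Dmp1 and Phex, stood against 2425 and 1285 papilla cells. In the maxillary library 7 of 9 genes and in the mandibular library 5 of 9 differed more than 2-fold, against 36.5% and 33.3% of all genes. The median log2 ratio was 1.33 and 0.52 for the members and -0.34 and -0.30 for all genes, which by median-of-ratios size factors would be -0.09 and -0.03, so ratios here are best read against the median of all genes.

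Fgfr2 and Fgfr3 were lower and Etv4, Etv5 and Spry1 higher in odontoblasts of both libraries than in the papilla class. Fgfr2 gave log2 ratios of -1.66 (-1.90 to -1.43) and -1.45 (-1.70 to -1.20), and Fgfr3 -2.34 (-2.94 to -1.79) and -2.98 (-3.86 to -2.22). Etv5 gave 2.76 (2.54 to 2.97) and 2.13 (1.94 to 2.32), Etv4 2.53 and 1.57, and Spry1 1.51 and 1.45. The papilla class leaves out the Smpd3-expressing clusters. Their Etv4 levels, 25.8 and 31.5 CPM, overlapped the 34.7 and 33.7 of odontoblasts, while their Etv5 levels were 36.9 and 39.9 against 91.3 and 112. The Etv4 ratio therefore depends on which mesenchyme is called papilla. Fgfr1 was the one receptor on the odontoblast side, by 0.39 and 0.37. Spry2 and Spry4 were past 2-fold in the maxillary library (1.33 and 1.58) and not in the mandibular one (0.55 and 0.52), and Dusp6 had opposite signs (-0.91 and 0.22). The P1 maxillary comparison has no value without shared barcodes, which leave 4 odontoblasts. The mandibular comparison holds no shared barcode, and with them added the log2 ratio of Etv4 was 0.73, no longer past 2-fold, and Dusp6 turned to -0.47, the one of the 9 genes that changed sign.

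Ameloblasts, the enamel-forming cells, held both receptors of the epithelium but hardly any response gene. Against the rest of the oral and dental epithelium, 5 of the 7 members at 10 CPM or more in the P1 maxillary library and 4 of 5 in the P1 mandibular one differed more than 2-fold, against 27.5% and 26.9% of all genes, and each of these was lower in ameloblasts. Fgfr1 was close to the rest, at 516 against 421 CPM (log2 ratio 0.29, 0.21 to 0.38) and at 472 against 447 (0.08, 0.02 to 0.15). Fgfr2 was lower, at 206 against 371 (-0.85) and 183 against 389 (-1.09).

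The ETS genes were almost missing from ameloblasts. A single Etv4 UMI was counted in each library, among 178 maxillary and 433 mandibular ameloblasts, against 450 and 165 UMIs in the rest of the epithelium (log2 ratios -6.29, interval -11.60 to -3.81, and -6.08, -11.39 to -3.58). Etv5 had 2 and 7 UMIs (log2 ratios -4.49 and -2.79). These counts are at or below the red blood cell level of up to 0.739 CPM for Etv4 and at most slightly above it for Etv5. Dusp6 was lower by log2 ratios of -1.74 and -4.24, Spry2 by -2.21 and -2.49 and Spry1 by -1.42 and -1.05. The median over all genes was -0.27 and -0.33 on this scale and 0.02 and -0.01 by size factors. With that scaling the mandibular ratios of Fgfr2 and Spry1 were -0.78 and -0.74, which leaves 2 of 5 genes past 2-fold (Spry2 and Etv4), whereas all 5 of the maxillary library stayed past it and Fgfr1 stood at 0.57 and 0.39. Of the P1 maxillary ameloblasts, 1 cell remained without shared barcodes, so that comparison gives no value without them, whereas the mandibular one holds none.

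**Figure D4:**
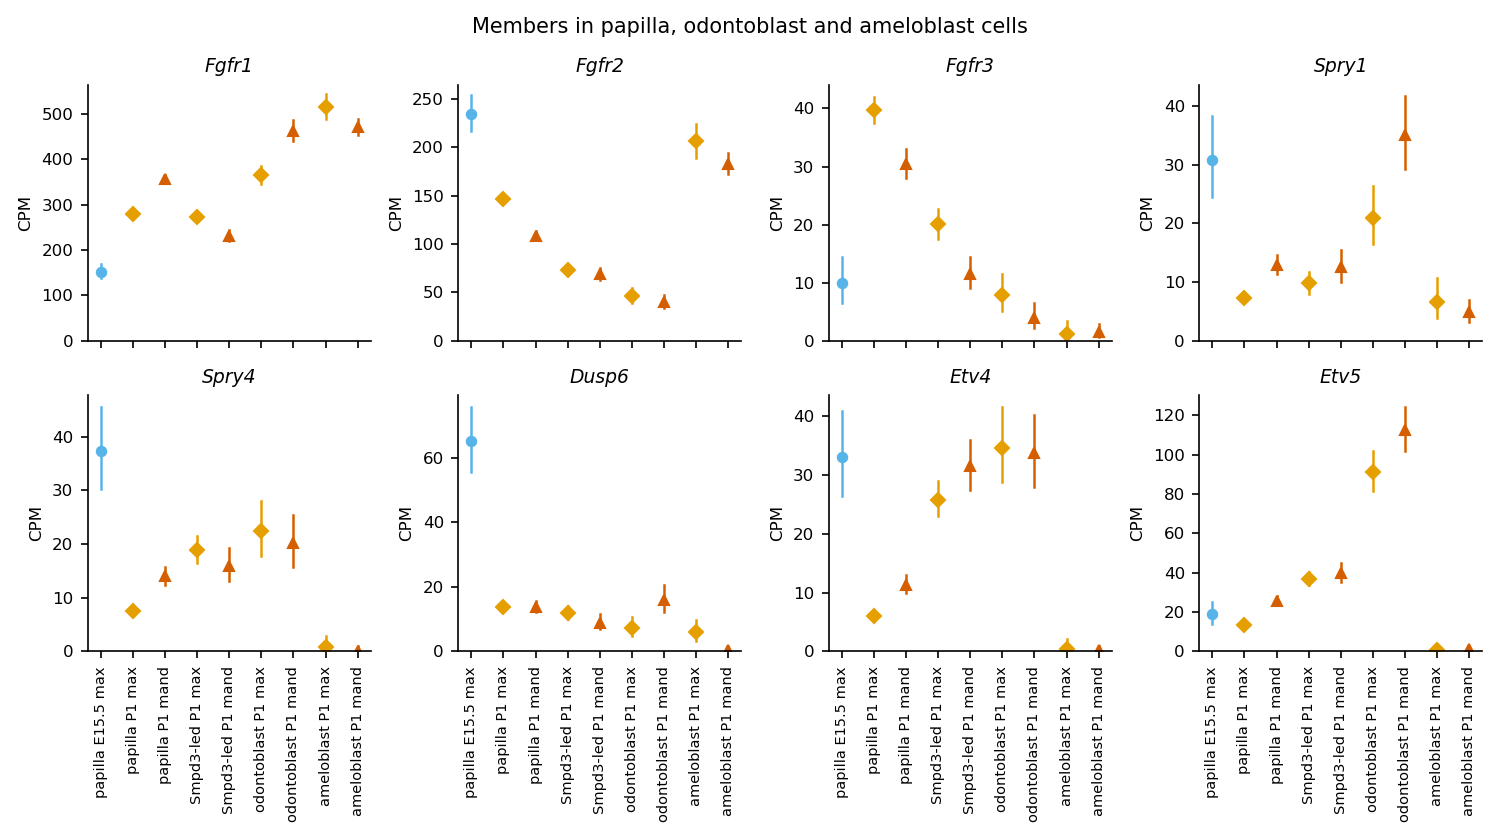
Level of 8 of the 9 genes (Spry2 is not drawn) in dental papilla, odontoblast and ameloblast cells by stage and jaw (horizontal axis), in CPM, with 95% counting intervals and each vertical axis starting at 0. Etv5 reaches 91.3 and 112 CPM in odontoblasts, Fgfr3 39.8 and 30.4 CPM in the P1 papilla, and Etv4 and Etv5 are near 0 in ameloblasts.

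P1 was compared with E15.5 in each jaw, which asks how the pathway genes differ between the bell stage and the start of mineralization. More than 2-fold differences were seen for 2 of 8 genes in maxillary epithelium, 7 of 8 in mandibular epithelium, 2 of 9 in maxillary mesenchyme and 1 of 9 in mandibular mesenchyme. Over all genes the shares were 15.8%, 19.9%, 9.71% and 10.5%. Stage and library are one and the same here, and so are stage and the make-up of each tissue. An ameloblast class was named in P1 epithelium and not at E15.5, although the mixed E15.5 mandibular epithelium held Amelx at 261 CPM. A level per tissue thus cannot be told apart from its mix of cells.

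Fgfr1 was higher at P1 in all 4 tissue and jaw combinations. The epithelium gave log2 ratios of 2.80 (2.69 to 2.92) in the maxillary and 1.74 (1.58 to 1.91) in the mandibular molar, and the mesenchyme 0.48 and 1.05. Without shared barcodes the maxillary epithelium gave 0.77 and the maxillary mesenchyme 0.23, so the direction was the same and the size smaller. Fgfr2 was lower at P1 throughout, by log2 ratios from -0.43 to -0.13, which without shared barcodes was 0.09 in maxillary mesenchyme. Fgfr3 was lower in P1 epithelium (-1.24 and -2.0) and higher in P1 mesenchyme (1.60 and 0.48), but without shared barcodes the maxillary epithelium gave -0.36 and the maxillary mesenchyme -0.16.

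Spry1, Spry2 and Dusp6 had 1 direction throughout, and the other response genes did not. Spry1 and Spry2 were lower at P1 in all 4 combinations, with log2 ratios of -0.79, -1.65, -1.24 and -0.89 for Spry1 and -0.26, -1.12, -0.54 and -0.76 for Spry2 in maxillary epithelium, mandibular epithelium, maxillary mesenchyme and mandibular mesenchyme. Without shared barcodes Spry1 gave -1.10 in maxillary epithelium and -0.87 in maxillary mesenchyme. Dusp6 was lower as well, by -0.52, -2.48, -0.26 and -0.32. Without shared barcodes its maxillary differences nearly vanished, at -0.11 in epithelium and -0.06 in mesenchyme. Spry4 gave 1.75, -0.75, -0.40 and -0.70 in the same order, at epithelial levels of 3.60 CPM or less, and its mandibular epithelial value was 0.04 with shared barcodes kept. Etv4 and Etv5 were higher in the mesenchyme of both jaws, by 0.72 and 0.81 for Etv4 and 0.53 and 0.92 for Etv5. In mandibular epithelium both were lower, by -1.38 (-1.85 to -0.89) and -2.55 (-2.96 to -2.13), and in maxillary epithelium Etv4 was higher by 0.94 and Etv5 level at 0.02. The mandibular Etv4 value came to 0.41 after every cell was thinned to 1000 UMIs, and the maxillary mesenchymal values to -1.02 and -0.15 without shared barcodes, so the stage direction of both ETS genes was not stable. The mandibular E15.5 epithelium had only 91 cells of mixed oral and dental type.

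In the dental papilla, a class named at both stages in the maxillary molar, 5 of 9 genes differed more than 2-fold, against 11.7% of all genes. Among marker genes of the class, Runx2 stood at 1312 CPM at E15.5 and 242 at P1, Epha3 at 516 and 55.4, and Barx1 at 927 and 753. Whether the class holds like cells at both stages was not tested. Spry1 went from 30.8 CPM at E15.5 to 7.36 at P1 (log2 ratio -2.07, -2.44 to -1.68), Spry4 from 37.3 to 7.52 (-2.31, -2.66 to -1.95), Dusp6 from 65.1 to 13.7 (-2.25, -2.51 to -1.99) and Etv4 from 33.1 to 6.01 (-2.46, -2.84 to -2.08). The intervals of these 4 response genes overlapped, while Etv5 was lower by less (-0.49, -0.92 to -0.04) and Spry2 level (0.12, -0.47 to 0.77). Fgfr3 was the one gene past 2-fold in the other direction, with 9.89 and 39.8 CPM (2.01, 1.45 to 2.63). Fgfr1 was higher by 0.87 and Fgfr2 lower by -0.68. The P1 maxillary papilla class leaves out the Smpd3-expressing cluster 3, which held Etv4 at 25.8 CPM, Etv5 at 36.9 and Spry4 at 18.9. That cluster gave 302 Etv4 UMIs against 187 in the whole class, so the sizes of these differences depend on where the papilla is drawn. The P1 mandibular papilla, which holds no shared barcode, stood at 12.9 CPM for Spry1, 14.0 for Spry4, 13.8 for Dusp6 and 11.4 for Etv4, all under the E15.5 maxillary levels, and at 30.4 for Fgfr3, above it. It leaves out the Smpd3-expressing cluster 12, where Etv4 stood at 31.5 CPM, near the 33.1 of the E15.5 papilla, and Spry4 at 16.0. No papilla class was found in the E15.5 mandibular library, and the P1 maxillary papilla is 98.1% shared barcodes.

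Maxillary and mandibular molars were compared at each stage. In mesenchyme none of the members differed more than 2-fold at E15.5 (0 of 8) or P1 (0 of 9), against 4.55% and 3.17% of all genes. In epithelium 2 of 8 did so at E15.5 and 3 of 7 at P1, against 5.40% and 3.30%. The P1 mesenchymal count rests on the shared barcodes: with them dropped from both libraries 3 of 9 were past 2-fold and lower in the maxillary mesenchyme, Fgfr3 at -1.07 (0.69 with them), Etv4 at -2.07 (-0.33) and Etv5 at -1.06 (-0.37). At E15.5 Fgfr1 and Etv5 were lower in the maxillary epithelium, at 62.4 against 136 CPM (log2 ratio -1.12) and 14.9 against 35.9 (-1.27). The mandibular side was 91 cells of mixed type, with Shh at 160 and Amelx at 261 CPM. The 636 maxillary cells held 39.4 and 0.194. The maxillary Shh-led cluster alone was close to the mandibular level for Fgfr1, but held Etv5 at 15.4 CPM. At P1 Dusp6, Etv4 and Etv5 were higher in the maxillary epithelium, by 1.35, 1.69 and 1.30. The jaw direction of Etv5 was therefore opposite at the 2 stages. Epithelial make-up differed between the jaws as well, with 178 maxillary and 433 mandibular ameloblasts at P1, and its part in these ratios was not tested. With shared barcodes kept in both P1 libraries the 3 P1 ratios were 0.79, 0.83 and 0.94. Without them in either library, Fgfr1, which differed by -0.06 in P1 epithelium, stood at -2.09, with 388 of the 1497 P1 maxillary epithelial cells left, Spry2 went from 0.35 to -0.11, and 4 of 7 genes were past 2-fold.

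Across clusters, the members fell into loose groups. The clusters share 4 libraries, depth and free RNA, so the coefficients describe these data and carry no test. Over all 127 clusters, on log2(CPM + 1), Pearson r was 0.69 for Dusp6 with Etv5, 0.61 for Etv4 with Etv5, 0.67 for Spry1 with Spry2, 0.66 for Spry1 with Spry4 and 0.57 for Spry2 with Spry4. Over the 16 epithelial clusters Etv4 and Etv5 stood at 0.89, Dusp6 and Etv4 at 0.86, and Spry2 and Etv4 at 0.89, while other response pairs reached down to 0.44 (Spry1 with Spry4). Over the 53 mesenchymal clusters the same pairs stood at 0.75, 0.54 and 0.33, and Spry2 with Spry4 at 0.70. Fgfr1 and Fgfr2 correlated at 0.70 over all clusters, but at -0.06 over the 69 epithelial and mesenchymal ones alone; the others include blood and immune clusters, in which both were low. Fgfr3 ran opposite to Spry1 in mesenchyme (-0.78) and to Fgfr1 in epithelium (-0.77).

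**Figure D5:**
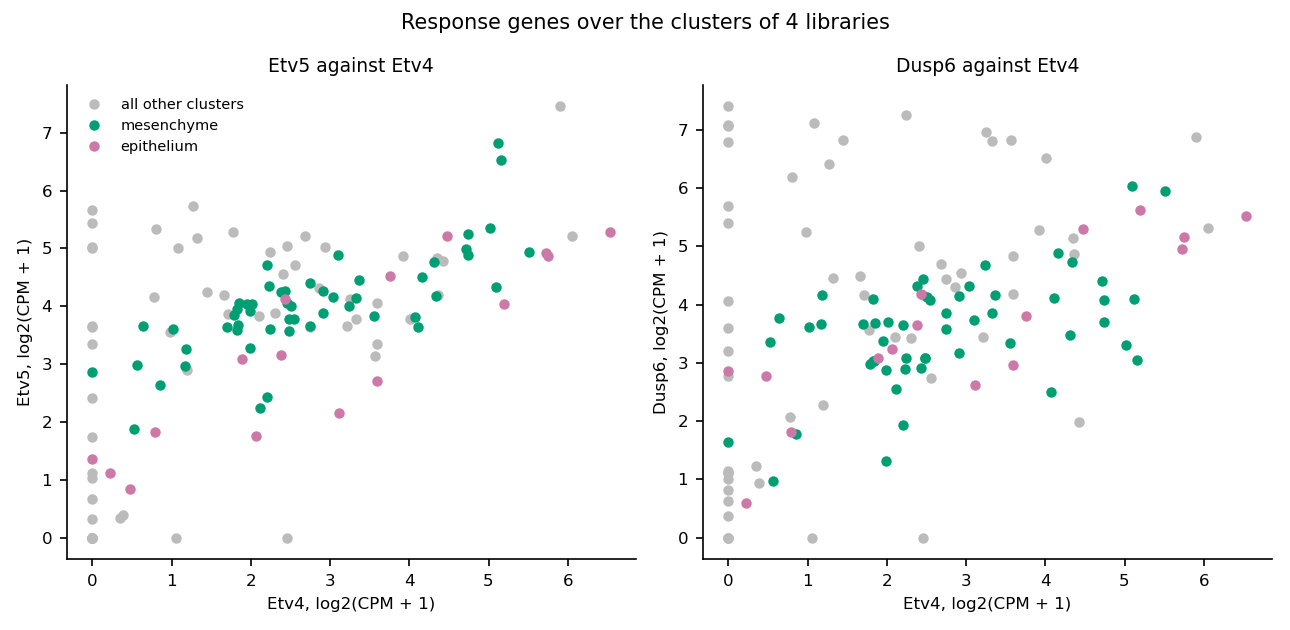
Pairs of response genes over the clusters of the 4 libraries, 1 point per cluster, both axes in log2(CPM + 1). Etv4 and Etv5 rise together (Pearson r 0.61 over 127 clusters and 0.89 over the 16 epithelial ones).

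The genes most like each member were sought among 12805 genes outside the FGF lists, by Pearson r of log2(CPM + 1) over 53 named classes. For Fgfr1 these were Ltbp3 (0.92), Rab23 (0.91) and Ptk7 (0.90), followed by Crtc1 and Maged1. For Fgfr2 they were Bckdhb (0.89), Fam185a, Prdm11, Twsg1 and Zfp362, and for Fgfr3, with a lower r, Unc5c (0.74), Lmo7, Dlx5, Vdr and Hebp2. For Spry4 they included Col4a2 (0.83), a collagen of basement membranes, and Igfbp7, both abundant in vessels, after Gm13889 (0.84) and beside Gng11 and Pakap. Spry1 was most like Lzts2 (0.84), Airn, Igf2r, Ahdc1 and Farp1, and Spry2 most like Traf4 (0.81), Nck2, Dnajb4, Gnasas1 and Dag1. Dusp6 was most like Sipa1l2 (0.81), Map3k11, Stk10, Ptpre and Arhgap26. Etv4 was most like Ptprg (0.77), Nck2, Etl4, 9630014M24Rik and Tsc22d1, and Etv5 most like Fancm (0.80), Slc25a28, Galnt7, Eci1 and Inpp4a, so the ETS genes had no closest gene in common.

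Of the 119 other genes of the pathway lists, the ligands were split most clearly between the tissues. Of 22 ligand genes, 8 reached 10 CPM in each E15.5 library, of which 1 was more than 2-fold higher in epithelium and 7 in mesenchyme, and 10 did so in each P1 library, of which 2 were higher in epithelium and 7 in mesenchyme. Over all genes 26.0% and 27.4% passed 2-fold in either direction in the E15.5 maxillary and mandibular libraries, and 24.9% and 27.3% in the P1 ones. Fgf9, the epithelial ligand, stood at 25.1 and 25.2 CPM in the P1 epithelium (log2 ratios to mesenchyme 4.52 and 4.59). Fgf10 and Fgf3 stood at the other end, with -7.24 and -7.06 for Fgf10 and -6.08 and -6.73 for Fgf3 at P1. Fgf3 was higher at P1 than at E15.5 in the mesenchyme of both jaws, with 55 against 2.26 CPM in the maxillary and 41.7 against 0.986 in the mandibular molar (4.61 and 5.40). Within the papilla the levels were closer, with 58.9 and 67.5 CPM at P1 against 38.1 in the E15.5 maxillary library. The P1 maxillary values here include the shared barcodes. Fgf4 and Fgf20, ligands of the enamel knot, did not pass 7.35 and 3.03 CPM in any class examined. Fgf7 and Fgf18 stood at up to 30.3 and 37.7 CPM, both on the mesenchymal side.

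Esrp1 and Esrp2, which direct the splicing of receptors to the IIIb form, were epithelial. Esrp1 gave log2 ratios to mesenchyme of 7.04, 7.42, 6.84 and 5.90 in the 4 libraries, at 129, 106, 102 and 88.0 CPM in epithelium, and Esrp2 8.0 in the E15.5 maxillary library. Ameloblasts kept Esrp1 at 93.5 and 76.0 CPM. Fgfbp1, which carries ligands from the matrix, was the most epithelial gene of the lists at E15.5 (8.57 and 8.51) and lower at P1 than at E15.5 in epithelium (-3.50 and -4.77), whereas Fgf1 was higher (2.76 and 3.18). Of the remaining receptors, Fgfr4 stood at 4.36 CPM or less, while Fgfrl1, which lacks a kinase, reached 19.4 CPM in the E15.5 papilla.

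Of the other feedback genes, Il17rd, an inhibitor of FGF receptors, was highest in the E15.5 papilla at 70.4 CPM, against 49.3 in the P1 mandibular papilla. Dusp4, a phosphatase for ERK like Dusp6, was found mainly in glia, at 29.0, 26.5, 23.2 and 80.0 CPM. Spred1 stood at up to 250 CPM in the Ibsp-led cells and Spred2 at up to 110 CPM in endothelium. Etv1, the third ETS factor of the group, followed Etv4 and Etv5 in odontoblasts, at 42.6 and 46.4 CPM (log2 ratios to papilla 2.09 and 1.37). The lists as a whole did not follow it. Other feedback genes were more than 2-fold lower in odontoblasts for 4 of 10 and 3 of 9, with 0 higher. Of other target genes 8 of 15 and 5 of 14 were lower and 2 in each library higher. Over all genes 36.5% and 33.3% passed 2-fold in either direction. In ameloblasts 6 of 11 and 5 of 10 other feedback genes were more than 2-fold lower than in the rest of the epithelium and none higher, and so were 7 of 10 and 8 of 10 other target genes, beside 27.5% and 26.9% of all genes past 2-fold in either direction. Other receptor tyrosine kinases showed the same side, with 7 of 10 and 8 of 10 lower: no Egfr UMI was found in the maxillary ameloblasts, against 1730 in the rest, which puts the log2 ratio at -6.65 or below when 3 counts are allowed for the 0, and the mandibular ratio was -6.69. In odontoblasts 11 of 14 and 9 of 12 of these kinases were lower than in papilla, beside 36.5% and 33.3% of all genes in either direction, with Ntrk3 at -7.89 and -7.92. In the papilla, Ccnd1, a cell cycle gene that growth factors induce, was at 182 CPM at P1 against 6.47 at E15.5 (4.82), opposite to Dusp6, Etv4 and the Sprouty genes Spry1 and Spry4. Of other target genes there, 5 of 15 were more than 2-fold higher at P1 and 1 lower. Of other feedback genes 0 of 10 were higher and 1 lower, beside 11.7% of all genes in either direction.

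The remaining list genes with the 3 largest ratios in either direction, at 20 CPM or more, are named here by comparison. The P1 maxillary values among them include the shared barcodes. On the mesenchymal side of the tissue comparison were Ddr2, a collagen receptor (log2 ratio -6.14 in the E15.5 maxillary and -6.17 in the P1 mandibular library), Ntrk3 (-6.36 and -6.49 in the maxillary libraries) and Fgf14 (-5.78 in the E15.5 maxillary library). On the epithelial side were Erbb3 (4.66 in the E15.5 mandibular library) and Hras (2.66 and 2.75 at P1).

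Between the stages, Kit, the receptor for stem cell factor, and Sdc3, a syndecan, were higher in the P1 mesenchyme of both jaws, Kit by 2.11 and 3.71 and Sdc3 by 2.02 and 2.10. Lrig1, which restrains ErbB receptors, was lower at P1 in all 4 combinations (-2.49 and -2.67 in epithelium, -1.61 and -1.46 in mesenchyme), and Erbb4 was among the 3 lowest in maxillary epithelium (-2.73) and mandibular mesenchyme (-1.56). Hs6st2 (-1.13) completed the last of these sets, Pdgfra (2.49) was among those higher in maxillary epithelium, and Sulf1 (1.50) and Rasa1 (1.22) among those higher in mandibular epithelium. In the maxillary papilla Shisa2 (2.58) and Ntrk3 (2.57) were higher at P1 and Egfr (-2.64), Fgf12 (-2.45) and Fgf13 (-1.53) lower.

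Between the jaws, in E15.5 epithelium, Sulf2 (2.79), Erbb4 (1.88) and Dusp1 (1.02) were higher in the maxillary molar and Etv1 (-2.40), Shisa2 (-1.99) and Il17rd (-1.34) lower. In E15.5 mesenchyme Ier3 (1.33), Fgf13 (1.16) and Fgf14 (1.05) were higher and Phlda1 (-1.01) lower. At P1 the genes with the 3 largest ratios were Ccnd1, Fgf13 and Ntrk2 against Gpc1, Pdgfra and Fos in epithelium, none past 2-fold, and Ntrk2, Sulf2 and Ntrk3 against Fgf18 (-1.04), Axl and Egfr in mesenchyme. In ameloblasts Sdc2 (1.22 and 1.15) was higher than in the rest of the epithelium, followed by Hras, with Gpc1 in the maxillary and Grb2 in the mandibular library, and Ntrk2 (-6.60 and -5.68), Dusp1 (-4.51, maxillary) and Kit (-4.74, mandibular) were lower. In odontoblasts Flrt2 (-7.30 and -5.62) was lower than in papilla in both libraries, as were Ntrk2 (-6.09) in the maxillary and Kit (-5.41) in the mandibular one, and Egr3 (3.43) and Pdgfra (1.18) were higher in the mandibular one and Hras (1.33) and Sdc3 in the maxillary one.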

How the data were processed

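Mouse molar cells were profiled with the 10x Genomics 3′ kit (v3.1) in 4 libraries. The authors aligned reads to mm10 with Cell Ranger (version 7.0.1 in the file headers) and deposited matrices of UMI counts, whole numbers per gene and barcode, which were used as deposited. Columns of other samples numbered 0.

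Barcodes with at least 1000 UMIs were kept, and P1 mandibular barcodes also present in the P1 maxillary library were dropped. Cells over 3 median absolute deviations in mitochondrial percentage were removed, as were the highest Scrublet scores, at 0.8% of barcodes for each 1000 barcodes loaded. Each library was scaled to 10000 counts per cell and clustered on 2000 variable genes, without the 128 FGF-list genes (40 principal components, 15 neighbours, Leiden resolution 1.0; Python 3.11.15, scanpy 1.11.5, numpy 2.4.6, scipy 1.17.1, pandas 2.3.3, leidenalg 0.10.2, igraph 0.11.9, matplotlib 3.10.9). Each cluster took the name of the marker list it matched best among those past minimum scores, and narrower names also required core markers; other clusters stayed unnamed or kept a broad name.

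Counts were summed per class and given as CPM with exact Poisson 95% intervals. Ratios have exact binomial intervals and shares of cells Clopper-Pearson intervals, all for counting error only. A difference was counted past 2-fold with at least 10 CPM on the higher side, a count of 0 was set to a floor of 3, and groups of under 50 cells were not ranked. Shares of cells were also taken after thinning each cell to 1000 UMIs. Correlations used a pseudocount of 1. With 1 library per group no test was run, and p-values are not given.

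The 9 genes and the lists were chosen with earlier results of these data known, and the limits for naming clusters were set after clusters and member levels had been seen. Beside the 9 genes, the text names the chief ligands, receptors, inhibitors, ETS and splicing genes of the lists, the 3 list genes with the largest ratio in each direction in a comparison with at least 20 CPM, and the 5 genes most alike each member. The script for the levels was tested on simulated data. Sequences came from RefSeq (GRCm38.p6).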

Additional observations from a re-analysis of the deposited data

Results flagged for a closer look

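For Fgfr3 the epithelium was above the mesenchyme in both E15.5 libraries and below it in both P1 libraries, with log2 ratios of 0.54 (maxillary) and 0.52 (mandibular) at E15.5 and -2.31 and -1.96 at P1. The difference between the stages was not tested, since each group has 1 library. In the E15.5 maxillary library the Shh-led cluster held 1.61 CPM, below the 8.25 of mesenchyme, and suprabasal cells 30.5. The part of the mix of epithelial cells was not tested. Without the barcodes shared by the P1 libraries the P1 maxillary ratio was 0.34, on the side of the E15.5 libraries, and the P1 mandibular one rests on no shared barcode.

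For Etv5 the same ratio was 0.0084 and 1.30 at E15.5 and -0.51 and -2.18 at P1, opposite in sign, and this difference was not tested either. The first of these values has a counting interval that includes 0, and the P1 maxillary ratio was 0.56 without shared barcodes.

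Fgfr3 also went opposite ways in the 2 tissues between the stages: the log2 ratio of P1 to E15.5 was -1.24 (maxillary) and -2.0 (mandibular) in epithelium and 1.60 and 0.48 in mesenchyme. This was not tested, and neither was the part of the mix of epithelial cells. The maxillary mesenchymal value was -0.16 without shared barcodes.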

How the results depend on the processing

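Of 36 combinations of gene and library, the class with the highest level was the same in 28 to 36 under the alternatives tried. The sizes of single ratios were less stable. After thinning to 1000 UMIs 41 of 149 were counted as the same, 107 as moved and 1 as reversed. With the mean of per-cell CPM 54 of 153 were counted as moved. The epithelium and mesenchyme comparison gave 19 of 36 differences past 2-fold, and 6 of 9 with a minimum of 50 CPM. The comparison of P1 with E15.5 gave 12 of 36, then 20 at a limit of 1.5-fold and 3 of 9 at 50 CPM, and its share over all genes went from 14.0% to 25.4% without a minimum. The jaw comparison, with 5 of 36, moved most: 2 with shared barcodes kept in both P1 libraries, 9 with them dropped from both, 2 without removal of doublets and high mitochondrial percentages, 3 with a limit on detected genes, 13 at 1.5-fold and 1 of 9 at 50 CPM, and its share over all genes went from 4.10% to 15.3% without a minimum. Values past 2-fold at 10 CPM or more that reversed, and the one coefficient that did, were Etv4 at P1 against E15.5 in mandibular epithelium (-1.38, and 0.41 after thinning to 1000 UMIs), Fgfr3 in P1 maxillary epithelium against mesenchyme (-2.31, and 0.34 without shared barcodes), Fgfr3 at P1 against E15.5 in maxillary mesenchyme (1.60, and -0.16 without shared barcodes), and the correlation of Fgfr1 with Fgfr2 (0.70, and -0.057 over epithelial and mesenchymal clusters alone). Fgfr3 and Spry4, under 10 CPM in the P1 maxillary ameloblast comparison, changed sign after thinning, and of 83 ratios under 2-fold 28 changed sign under at least 1 alternative. Without shared barcodes these included Fgfr1 (-1.07) and Etv5 (0.56) in P1 maxillary epithelium against mesenchyme, Etv4 (-1.02) and Etv5 (-0.15) at P1 against E15.5 in maxillary mesenchyme, and Fgfr3 (-1.07) between the jaws in P1 mesenchyme. The cause of these changes was not tested. Without shared barcodes the P1 maxillary papilla, odontoblast and ameloblast comparisons had 47, 4 and 1 cells and gave no value. No paired test was run: the epithelium and mesenchyme of a library form a pair, but the 4 libraries differ in stage or jaw and were not taken as replicates. A level below that of red blood cells, or a class of few cells, limits what depth can show.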
